A study of Homo sapiens with 6 samples.

Results

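The family of miR-28 and miR-151a was followed in small RNA libraries of MDA-MB-231, a triple-negative breast cancer cell line. It is known to be of mesenchymal type, while the labels describe it as a mammary gland epithelial line. Its members were taken by name, as every row of the deposited table that begins with miR-28, miR-151a, miR-151b or miR-708 and its arm. This rule took 5 of the 413 mature miRNAs listed, namely hsa-miR-28-5p, hsa-miR-28-3p, hsa-miR-151a-5p, hsa-miR-151a-3p and hsa-miR-151b (the species prefix is left out from here on), and 0 rows held an arm of miR-708. The study describes the 413 as the miRNAs that both groups expressed, out of a larger number found. An unlisted miRNA, miR-708 included, was therefore not necessarily absent from the cells. A listed miRNA was in turn not always counted in both groups, as miR-10b-5p was listed at 0 in all 3 WA libraries. The cells were given Withaferin A (WA), a steroidal lactone of the plant Withania somnifera, at 2 µM for 24 h, and 3 libraries were made from them. Another 3 libraries were made from control cells. These are called vehicle-treated here, as the study names DMSO as the vehicle, while the labels call them untreated. The labels name no genetic change in either group, and all libraries come from 1 cell line. In bulk RNA of this kind, fewer cells with an miRNA and less of it per cell cannot be told apart. The study calls the replicates independent, but neither it nor the labels say whether they were separate cultures, so the p-values measure the spread between these libraries, which may in part be technical.

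A miRNA hairpin is cut into a duplex whose 5′ strand (5p) and 3′ strand (3p) can each be loaded into an Argonaute protein, and one strand usually dominates. The loaded strand finds its mRNA targets mainly through its seed, bases 2 to 8, so the 2 arms of a hairpin act on different mRNAs. miR-28, miR-151a, miR-151b and miR-708 descend from an ancient transposable element of the LINE2 type and still share stretches of sequence. miR-151a lies in the gene of the focal adhesion kinase FAK (PTK2) and is known for promoting cell migration, while miR-28 lies in LPP, a gene for a protein of focal adhesions, and its 2 arms are known to have different effects in colorectal cancer cells.

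The mature sequences that the RefSeq table (GRCh38.p14) holds are shown with the seed in capitals, because they carry the kinship between the hairpins and the difference between the arms. miR-28-3p is the member found there, and the arms of miR-708, for which no values were analysed, are given beside it as relatives.
miR-28-3p: cACUAGAUugugagcuccugga
miR-708-3p: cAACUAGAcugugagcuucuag
miR-708-5p: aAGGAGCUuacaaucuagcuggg

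The 3 seeds differ. The longest run that miR-28-3p and miR-708-3p share is UGUGAGCU, 8 bases from position 9 in miR-28-3p and from position 10 in miR-708-3p, counted from the 5′ end. Bases 9 to 19 of miR-28-3p, UGUGAGCUCCU, are the reverse complement of 11 bases of the MIR151B hairpin, AGGAGCUCACA. The first 7 bases of that run are the seed of miR-708-5p. Of the 413 miRNAs 368 had a mature entry in the RefSeq table, and 0 others among them had the seed of miR-28-3p or shared 10 or more bases in a row with it.

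In the GENCODE release 44 annotation of GRCh38, the MIR28 hairpin (ENSG00000207651) is found at 188688781 to 188688866 of chromosome 3 (plus strand), and miR-28-3p takes 188688834 to 188688855. It is intronic in LPP, where it lies within 8 annotated transcripts and touches 0 of their exons. MIR151A (ENSG00000254324) lies on chromosome 8, within 17 transcripts of PTK2 on the same strand and in 0 of their exons. MIR151B (ENSG00000265154) lies on the minus strand of chromosome 14 from 100109419 to 100109514, antisense to EVL and in an intron of 8 of its transcripts. MIR708 lies on chromosome 11 from 79402022 to 79402109, in an intron of TENM4. The mature miR-151b sequence is contained in that of miR-151a-5p, so short reads of these 2 miRNAs cannot be told apart, and the rule by which the authors assigned such reads is not given in the sources used here.

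Values are read counts divided by a size factor of the library, as the authors deposited them, and are called normalized values. Over the 413 listed miRNAs the vehicle libraries held 710878 to 4778066 reads, and the WA libraries held 156442 to 2232934. Reads on anything else are not part of these totals or of the shares below. Across the 413 miRNAs the Pearson correlation of log2(normalized value + 1) was 0.987 between vehicle replicates 2 and 3 and 0.964 between WA replicates 1 and 2. Vehicle replicate 1 had 0.785 and 0.792 with the other vehicle libraries, and WA replicate 3 had 0.630 and 0.641 with the other WA libraries, less than its 0.772, 0.797 and 0.774 with vehicle replicates 1 to 3. miR-155-5p, an miRNA of immune and mesenchymal-type cells, was at 26488 and 24844 in WA replicates 1 and 2 and at 3.01 in WA replicate 3, beside vehicle values of 2.71, 0 and 1.22. Vehicle replicate 1 and WA replicate 3 therefore stand apart from their groups, and the member results that change a call, turn or move by more than 1.5 times without either of them are given both ways. All 6 markers of mesenchymal-type breast cancer cells that were checked were in the table. They summed to 140105 to 187903 CPM (the value scaled to a common library sum) in the vehicle libraries. In the WA libraries the sum was 103671 to 278320 CPM. These sums do not describe miR-31-5p, whose vehicle normalized values were only 33.9 (replicate 1), 5.43 (replicate 2) and 8.86 (replicate 3). Under WA it had 2777 (replicate 1), 3005 (replicate 2) and 23.3 (replicate 3). Each of the other mesenchymal-type markers had a normalized value of 7568.5 or more in every library. Of 6 epithelial markers 4 were listed. Their summed levels were 140.4 to 1891 CPM in the vehicle libraries and 0 to 739 CPM in the WA libraries. miR-200a-3p, miR-200b-3p, miR-200c-3p and miR-429 were at 0 in WA replicates 1 and 2. In WA replicate 3 they were at 386, 642, 165 and 48.1. There miR-200a-3p and miR-200c-3p lay above all vehicle libraries, and miR-200b-3p and miR-429 lay within the vehicle range. A 0 allows up to 3 reads, which equal 17.4 in WA replicate 1 and 5.36 in WA replicate 2. miR-429 was at 56.9, 15.7 and 15.0 in vehicle replicates 1 to 3, so it fell under 17.4 in the last 2. The other listed markers were at 29.0 or more in every vehicle library. Of 8 blood and serum markers 2 were listed, with sums of 361 to 920 CPM and 0 to 738 CPM. Markers that are not listed were not necessarily absent. At a limma adjusted p under 0.05, 0 markers of the 3 lists were called, beside 18 of the 327 miRNAs tested (5.5%). At an unadjusted p under 0.05 in either direction, 1 marker of the 3 lists was called, miR-31-5p, which was higher. Beside it 86 of the 327 miRNAs tested (26.3%) were called. The part of depth and of these markers in the results was not tested.

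miR-151a-3p was the most abundant member by mean over the 6 libraries and ranked 18 of the 413 miRNAs. It was at 1112, 42536 and 56325 in vehicle replicates 1 to 3 and at 1739, 1965 and 5261 in WA replicates 1 to 3. The WA libraries lay far below vehicle replicates 2 and 3 but above vehicle replicate 1, so the groups overlapped. As a share of the reads on the listed miRNAs it took 3.12% (95% Wilson interval 3.10 to 3.13%) of vehicle replicate 2 and 4.39% (4.37 to 4.41%) of vehicle replicate 3. In vehicle replicate 1 the share was 0.115% (0.108 to 0.124%), and in the WA libraries it ran from 0.192% to 0.314%. These intervals cover counting error only, and since reads are not independent molecules they are too narrow even for that. The vehicle libraries spanned 5.66 on the log2 scale for this miRNA, a span that 12 of the 327 tested miRNAs (3.67%) reached, against a median of 1.75.

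miR-151a-5p, the other arm of the same hairpin, did not follow it. It was at 4230, 581 and 466 in vehicle replicates 1 to 3 and at 3165, 3932 and 177 in WA replicates 1 to 3. Here vehicle replicate 1 and WA replicates 1 and 2 were high and the other 3 libraries were low, and the groups overlapped. The lowest value, in WA replicate 3, still rested on 235 reads.

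miR-28-3p was the steadiest member. It was at 650, 876 and 626 in vehicle replicates 1 to 3 and at 910, 897 and 2615 in WA replicates 1 to 3. Each WA library lay above each vehicle library, though WA replicate 2 exceeded vehicle replicate 2 by little. The vehicle libraries spanned 0.48 on the log2 scale, and 297 of the 327 tested miRNAs spanned as much or more.

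miR-28-5p was the minor arm of its hairpin in every library. It was at 92.1, 111 and 164 in vehicle replicates 1 to 3 and at 394, 506 and 95.4 in WA replicates 1 to 3. WA replicates 1 and 2 were higher than all vehicle libraries, and WA replicate 3 was among them.

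miR-151b was the least abundant member. It was at 20.3, 58.0 and 25.1 in vehicle replicates 1 to 3, from 15, 203 and 82 reads. In WA replicates 1 and 2 it was at 58.0 and 84.0, from 10 and 47 reads. It was listed at 0 in WA replicate 3, where a count of 0 allows up to 3 reads, or a normalized value of 2.25. miR-151b amounted to 0.480%, 9.97% and 5.37% of miR-151a-5p in vehicle replicates 1 to 3 and to 1.83%, 2.14% and 0% in WA replicates 1 to 3. The vehicle shares thus ran both below and above those of WA replicates 1 and 2.

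**Figure D1:**
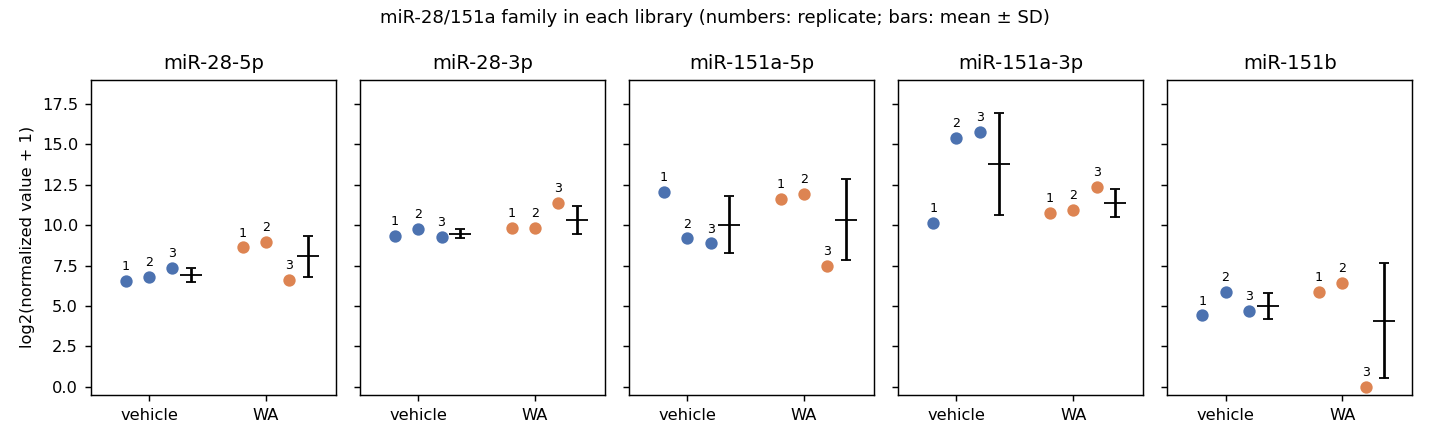
Levels of the 5 family members as log2(normalized value + 1) in the 3 vehicle and 3 WA libraries, with the replicate number above each point and the mean ± SD of each group beside it. miR-151a-3p is at 1112 in vehicle replicate 1 against 42536 and 56325 in the other vehicle libraries, and miR-28-3p alone has WA points that all lie above the vehicle points.

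Summed over the 5 members, the family took 3.24% and 4.49% of the reads on the listed miRNAs in vehicle replicates 2 and 3. It took between 0.486% and 0.732% in the other 4 libraries, vehicle replicate 1 included. Its make-up differed as much as its size. miR-151a-3p made up 96.3% and 97.8% of the family in vehicle replicates 2 and 3 and 64.6% in WA replicate 3. It made up 18.2% in vehicle replicate 1 and 27.8% and 26.6% in WA replicates 1 and 2, where miR-151a-5p led with 69.3%, 50.5% and 53.3%. miR-28-3p held between 1.09% and 14.5% in 5 libraries and 32.1% in WA replicate 3.

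**Figure D2:**
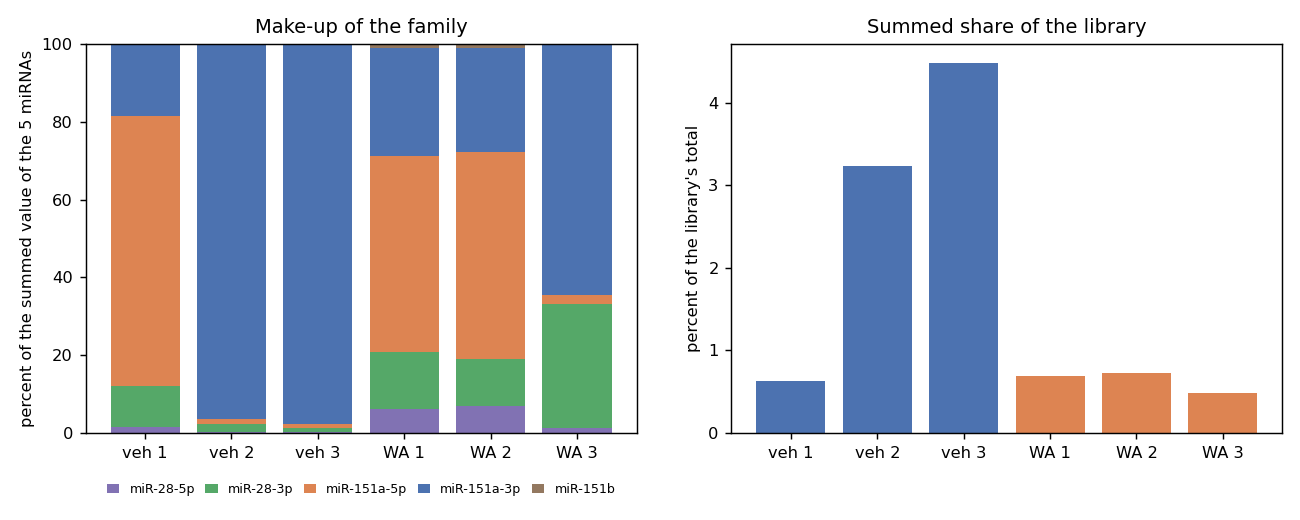
Left, the percent of the summed normalized value of the 5 members that each took, by library. Right, the percent of the library's total over the listed miRNAs that the 5 members took together. miR-151a-3p fills 96.3% and 97.8% of the bar in vehicle replicates 2 and 3, and miR-151a-5p is the largest part in vehicle replicate 1 and WA replicates 1 and 2.

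The balance of the 2 arms was compared inside each library, where it does not depend on the scaling of that library apart from the 1 added to each value. For miR-151a the 5p arm exceeded the 3p arm by 3.80-fold in vehicle replicate 1, by 1.82-fold in WA replicate 1 and by 2.00-fold in WA replicate 2. The 3p arm exceeded the 5p arm by 73.2-fold in vehicle replicate 2, by 121-fold in vehicle replicate 3 and by 29.8-fold in WA replicate 3. The larger arm therefore differed between libraries of the same group, in both groups. The log2 5p/3p ratio had a vehicle mean of -3.73 ± 4.91 (SD, n = 3) and a WA mean of -1.01 ± 3.36 (SD, n = 3), which differed by 2.72 (standard error 2.53). The limma adjusted p was 0.709 over the 80 hairpins with both arms tested. The 95% interval of this difference, -3.06 to 8.49, takes in large shifts in either direction. Without vehicle replicate 1 the difference was 5.54 with the ratio higher in each WA library than in each vehicle library, and the limma adjusted p was 0.131. In that comparison 19 of the 80 hairpins (23.8%) had WA ratios that all lay above the vehicle ratios, and 0 (0.0%) were called. Without WA replicate 3 the difference was 4.66 (standard error 2.60), the limma adjusted p was 0.292, and 12 of the 80 hairpins (15.0%) were called.

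The span of the log2 5p/3p ratio over the vehicle libraries was 8.84 for miR-151a, rank 1 among the 80 hairpins, whose median span was 1.89. In 5 hairpins (6.25%) the larger arm of vehicle replicate 1 was the smaller arm of both other vehicle libraries, namely miR-151a, miR-147b, miR-32, miR-361 and miR-455, the last 4 chosen after their values were seen. The larger arm was not the same in all 6 libraries for 19 of the 80 hairpins.

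For miR-28 the 3p arm was larger in every library. It exceeded the 5p arm by 7.06-, 7.86- and 3.83-fold in vehicle replicates 1 to 3, by 2.31- and 1.77-fold in WA replicates 1 and 2, and by 27.4-fold in WA replicate 3. The WA libraries thus lay on both sides of the vehicle libraries. The log2 5p/3p ratio had a vehicle mean of -2.57 ± 0.557 (SD, n = 3) and a WA mean of -2.26 ± 2.17 (SD, n = 3). The difference of 0.30 had a standard error of 1.25 and a limma adjusted p of 0.921. Without WA replicate 3 it was 1.55, with a limma adjusted p of 0.281. Without vehicle replicate 1 it was 0.18.

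Over all hairpins 0 of 80 ratios (0.0%) passed a limma adjusted p of 0.05, while 17 (21.2%) passed it without adjustment. Neither miR-151a nor miR-28 was among those 17. The largest rise of the 5p/3p ratio was that of miR-664a, with a log2 difference of 8.84, and the largest fall that of miR-10a, at -4.75. Both rest on arms listed at 0. Both arms of miR-10a were at 0 in WA replicates 1 and 2, so its ratio there is that of the added 1 alone. For miR-664a the 5p arm was at 0 in vehicle replicate 1 and the 3p arm in WA replicates 1 and 2. All 4 arms of miR-151a and miR-28 were above 0 in every library.

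**Figure D3:**
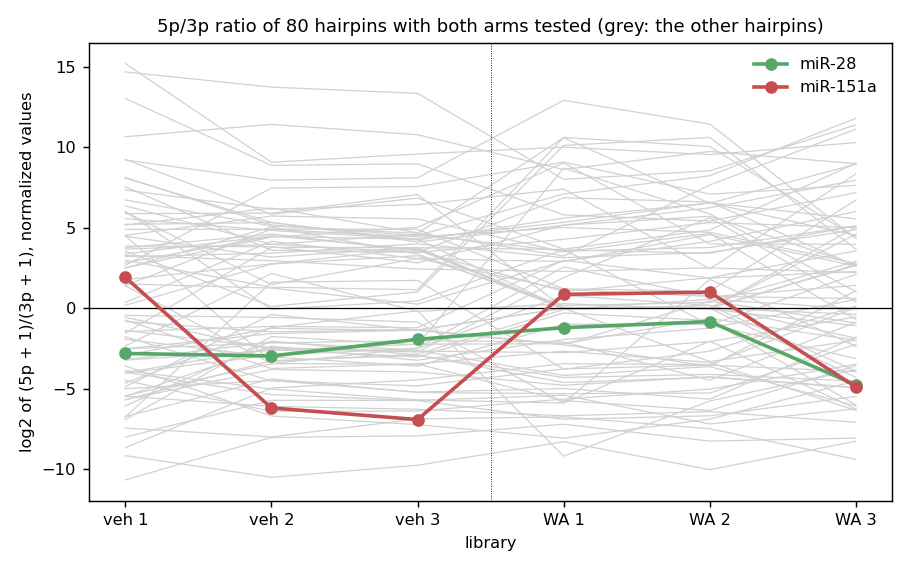
The log2 ratio of the 5p to the 3p arm, with 1 added to each normalized value, in each of the 6 libraries for the 80 hairpins with both arms tested. A line joins the values of 1 hairpin and stands for no order of the libraries; miR-151a crosses 0 from 1.93 in vehicle replicate 1 to -6.19 and -6.91 in vehicle replicates 2 and 3, while miR-28 stays under 0 throughout.

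The levels of the 5 members in WA-treated and vehicle-treated cells were compared by limma on log2(normalized value + 1), fitted over the 327 miRNAs that reached a value of 10 in 3 or more libraries, a filter that all 5 members passed. A limma adjusted p under 0.05 was reached by 0 of the 5 members and by 18 of all tested miRNAs (5.5%). At an unadjusted p under 0.05 there were 0 members and 86 of all tested miRNAs (26.3%). The median log2 difference over all tested miRNAs was -0.91, and it was -0.62 with upper-quartile scaling. Of the 413 listed miRNAs 166, 146 and 52 were at 0 in WA replicates 1 to 3, against 21, 3 and 2 in vehicle replicates 1 to 3. How far such zeros weigh on the median was not tested.

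The log2 difference of miR-151a-3p, WA minus vehicle, was -2.40 (standard error 1.49, 95% interval -5.89 to 1.08) with a limma adjusted p of 0.343. Without vehicle replicate 1 it was -4.22 and the limma adjusted p was 0.0313, with each WA library below both remaining vehicle libraries. That fit called 21 of the 327 miRNAs (6.42%), and 15 of the 327 (4.59%) were called lower. Of the 327, 31.5% lay lower in each WA library than in each vehicle library. The fall of miR-151a-3p was thus called only with that library left out. It was not called with any other library left out, where the difference ran from -2.91 to -1.39.

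The log2 difference of miR-151a-5p was 0.31 (standard error 1.41, 95% interval -2.97 to 3.60), with a limma adjusted p of 0.891. It was 1.32 without vehicle replicate 1 and 1.75 without WA replicate 3, with limma adjusted p values of 0.566 and 0.223. It turned negative when another library was left out, to -0.11 without vehicle replicate 2, to -0.27 without vehicle replicate 3, to -0.33 without WA replicate 1 and to -0.48 without WA replicate 2. The sign for this arm thus depended on which library was left out.

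The log2 difference of miR-28-5p was 1.16 (standard error 0.972, 95% interval -1.11 to 3.43), with a limma adjusted p of 0.450. Without WA replicate 3 it was 1.90 with a limma adjusted p of 0.0327. In that fit a call was common, with 147 of the 327 miRNAs (45.0%) called in either direction. Calls for higher values, as for miR-28-5p, were fewer, at 32 of the 327 (9.79%). With each other library left out the difference stayed positive, from 0.70 to 1.39, and was not called.

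The log2 difference of miR-28-3p was 0.86 (standard error 0.696, 95% interval -0.77 to 2.49), with a limma adjusted p of 0.445. Its groups did not overlap, which held for this 1 of the 5 members and for 89 of the 327 tested miRNAs (27.2%). In the same direction it held for 25 of the 327 (7.65%). Under TMM scaling (trimmed mean of M values) the miR-28-3p groups overlapped, with vehicle replicate 2 at 979 and WA replicate 2 at 937. The exact permutation test (two-sided) gave p = 0.1, the smallest that 3 libraries against 3 allow, and 0.5 after adjustment over the 5 members. Without WA replicate 3 the difference was 0.35.

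The log2 difference of miR-151b was -0.90 (standard error 1.86, 95% interval -5.24 to 3.43), with a limma adjusted p of 0.754. It was 1.15 without WA replicate 3, the library in which miR-151b was listed at 0. The exact permutation p (two-sided) was 0.3 for miR-28-5p, 1.0 for miR-151a-5p, 0.4 for miR-151a-3p and 0.9 for miR-151b.

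**Figure D4:**
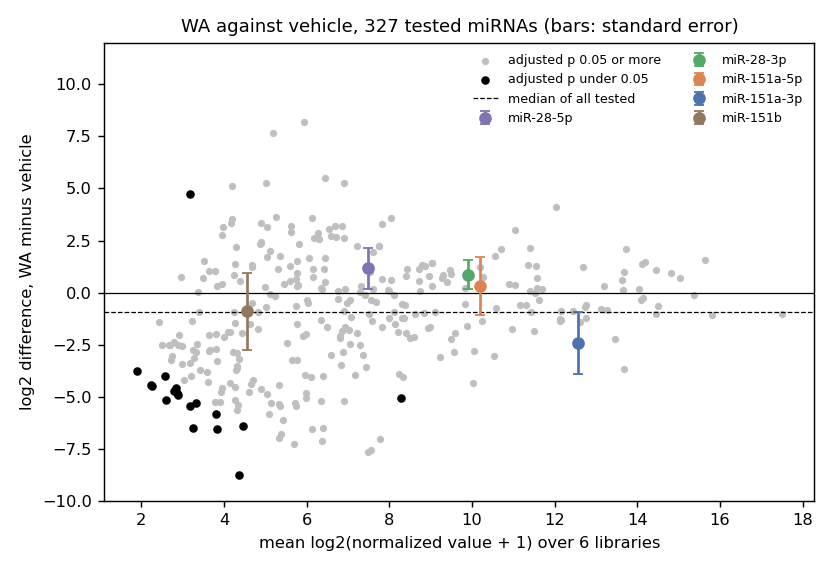
The log2 difference, WA minus vehicle, against the mean log2(normalized value + 1) over the 6 libraries for the 327 tested miRNAs, with standard errors for the 5 family members. The members sit among the grey points of miRNAs with an adjusted p of 0.05 or more, with miR-151a-3p at -2.40 under the dashed median of -0.91 and miR-28-5p at 1.16 above it.

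**Figure D5:**
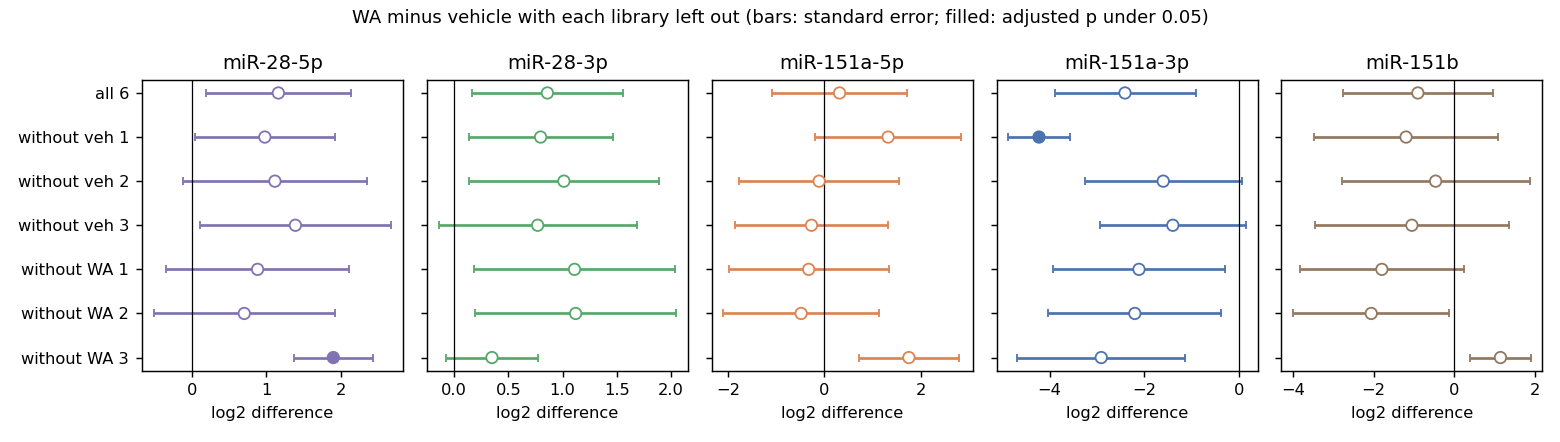
The log2 difference, WA minus vehicle, of each member with all 6 libraries and with each library left out, with standard errors; filled points have a limma adjusted p under 0.05. Only miR-151a-3p without vehicle replicate 1 (-4.22) and miR-28-5p without WA replicate 3 (1.90) are filled, and miR-151a-5p and miR-151b change sign.

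The members were also set against each other as log2 ratios within a library. For none of the 10 pairs did the WA ratios all lie on one side of the vehicle ratios, and the exact permutation p (two-sided) ran from 0.2 to 0.9 and was 0.9 for each pair after adjustment over the 10. The ratio of miR-28-3p to miR-151a-3p was nearly the same in the 3 WA libraries, at -0.93, -1.13 and -1.01. In the vehicle libraries it was at -0.77, -5.60 and -6.49, so vehicle replicate 1 was close to the WA libraries. As a description over 6 libraries that share 2 groups, the Pearson correlation of log2 values was -0.69 between the 2 arms of miR-151a, -0.21 between those of miR-28 and 0.69 between miR-151a-5p and miR-151b.

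The tested miRNAs whose log2 values ran most like a member over the 6 libraries were not the same for any 2 members. These were picked as the 3 with the highest r for each member, so their r values are descriptive and test no co-expression. For miR-151a-3p they were miR-455-5p (Pearson r = 0.982), miR-106b-3p (0.970) and miR-100-5p (0.970). miR-455-5p was at 35.2, 837 and 831 in vehicle replicates 1 to 3 and at 34.8, 89.3 and 131 in WA replicates 1 to 3, so it too was low in vehicle replicate 1. For miR-151a-5p they were miR-505-3p (0.990), miR-301a-3p (0.959) and miR-181d-5p (0.957). miR-505-3p was at 894, 284 and 284 in vehicle replicates 1 to 3 and at 765, 675 and 167 in WA replicates 1 to 3.

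For miR-28-5p the closest were miR-143-3p (0.978), miR-26b-5p (0.972) and miR-340-3p (0.967). miR-143-3p was at 16.3, 49.4 and 43.4 in vehicle replicates 1 to 3, at 783 and 1306 in WA replicates 1 and 2 and at 29.3 in WA replicate 3. For miR-28-3p they were miR-125a-3p (0.966), miR-221-5p (0.907) and miR-222-5p (0.907), which were all highest in WA replicate 3. For miR-151b they were miR-3613-5p (0.982), miR-9985 (0.979) and miR-450a-5p (0.977), the first 2 of which were also listed at 0 in WA replicate 3.

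Since miR-151a is known for a role in migration, 20 miRNAs with known roles in migration, invasion or epithelial state were looked at beside it. Of these 16 were in the table and 15 were tested. The listed member that did not pass the filter was miR-155-5p, whose values are given above. With a limma adjusted p under 0.05, beside 5.5% of all tested miRNAs, 0 were higher and 1 was lower, miR-10b-5p, known for promoting invasion of breast cancer cells. It had vehicle values of 12.2, 10.9 and 15.3 and was listed at 0 in all 3 WA libraries, where 3 reads equal 17.4 in WA replicate 1, more than any vehicle value. At an unadjusted p under 0.05, 1 was higher (miR-31-5p) and 1 lower (miR-10b-5p), beside 26.3% of all tested miRNAs in either direction. The median log2 difference of the 15 was -1.04, beside -0.91 over all tested miRNAs.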

How the data were processed

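Small RNA was sequenced from 3 vehicle-treated and 3 WA-treated samples of MDA-MB-231 cells. The authors trimmed reads with Trim Galore, aligned them with Bowtie to GRCh38.p10, set aside reads of other small RNA classes and assigned what remained to mature miRNAs. The deposited signal is the read count per miRNA divided by a size factor per library. Of their own DESeq2 comparison the authors deposited a log2 difference, its linear ratio and p-values raw and adjusted, none of which were used. No per-sample column was left unused (0).

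Every library's values (100%) could be written as whole numbers times one step (tolerance 1e-04), and median-of-ratios size factors of the whole numbers equalled the inverse steps in all 6 libraries. These whole numbers are given as reads, but between 0 and 1 value per library sat at 1 step, too few to check that a step is 1 read, so no count model was run on them. CPM is the value scaled to the same sum in each library. The filter was a value of 10 or more in 3 or more libraries, and the test was limma 3.58.1 in R 4.3.3, two-sided, with a pseudocount of 1, a variance trend for levels and none for arm ratios, and Benjamini-Hochberg adjustment. The pseudocount makes differences between low values smaller. A fall to 0 can instead be overstated, since a 0 is entered as 1 while in WA replicate 1 it allows a value of up to 17.4. Python 3.11.15, numpy 2.4.6, pandas 2.3.3 and scipy 1.17.1 were used elsewhere. The fit was tested on simulated data in which no library stood apart from its group, so that test does not cover such libraries.

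The members and gene lists were chosen with earlier results of these data known. miRNAs outside the family were named as the 3 most correlated with a member, the largest arm shifts either way and the called members of the migration list. Outside this rule miR-155-5p, miR-31-5p, the epithelial markers at 0 and the hairpins whose larger arm changed were named after their values were seen. Coordinates and sequences outside the tables used here were not analysed.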

Additional observations from a re-analysis of the deposited data

How the results depend on the processing

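The 5 level differences and 2 arm ratio differences kept their direction and their side of the 0.05 threshold in all 62 alternatives that kept every library (pseudocounts of 0.1 and 10, other filters, scaling by the library total, upper quartile or a trimmed mean of M values, the variance trend switched, and the replicate number as a block). miR-151b did not pass a value of 10 in every library. The log2 differences there ran from 1.12 to 1.43 for miR-28-5p, 0.85 to 1.13 for miR-28-3p, 0.31 to 0.58 for miR-151a-5p, -2.40 to -2.13 for miR-151a-3p and -1.98 to -0.06 for miR-151b. With the replicate number as a block the limma adjusted p of miR-151a-3p was 0.211 at -2.40, and the block changed no member's call. It gave 24 called miRNAs in place of 18 and 4 called arm ratios in place of 0, none of them of the family. Same-numbered libraries did not deviate together (correlations of -0.07, 0.06 and -0.09 over the tested miRNAs), and the libraries did not each correlate best with their own number. These deviations are from means of 3 libraries in which vehicle replicate 1 or WA replicate 3 stood apart, so they are a weak check of pairing. The edgeR and DESeq2 alternatives were not run, since too few values sat at 1 step to check that a step is 1 read.

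Leaving out 1 library at a time, the log2 difference ran from 0.70 to 1.90 for miR-28-5p, 0.35 to 1.12 for miR-28-3p, -0.48 to 1.75 for miR-151a-5p, -4.22 to -1.39 for miR-151a-3p and -2.06 to 1.15 for miR-151b. The arm ratio difference ran from 1.12 to 5.54 for miR-151a and from -0.42 to 1.55 for miR-28. Reversed values were -0.11, -0.27, -0.33 and -0.48 for miR-151a-5p without vehicle replicate 2, vehicle replicate 3, WA replicate 1 and WA replicate 2, 1.15 for miR-151b without WA replicate 3, and -0.23 and -0.42 for the miR-28 ratio without WA replicates 1 and 2. Calls were gained for miR-28-5p (1.90) without WA replicate 3 and miR-151a-3p (-4.22) without vehicle replicate 1. The cause was not tested. Of all miRNAs 18 were called, 7 with either other pseudocount, 53 with no filter, 0 with a value of 10 in every library (29 unadjusted) and 0 with upper-quartile scaling (78 unadjusted). With a library left out the number ran from 0 to 147, and for arm ratios from 0 to 12.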
